A study of Mus musculus with 12 samples.

Results

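The genes described here are 9 oxygen-dependent histone lysine demethylases, Kdm2a, Kdm2b, Kdm3a, Kdm3b, Kdm4a, Kdm4b, Kdm4c, Kdm5b and Kdm6b. They were taken by gene symbol from a table of 54532 mouse genes, and all 9 were among the 14804 genes that passed the filter on low counts. Transcript profiles came from bulk RNA sequencing of 12 single embryos at embryonic day 9.5, 6 KO and 6 WT, all of strain C57BL6/J. KO embryos had the genotype written TRAF7-*/-* in the labels, which is a whole-body deletion made by crossing mice with a floxed Traf7 allele to E2a-Cre transgenic mice. The asterisk marks an allele from the line that also carries a small intronic deletion in 2310061I04Rik, a gene of unknown function on the same chromosome, so a difference from WT may belong to either gene, and the contributions of both cannot be told apart. The sources used here do not say which embryos were littermates, and p-values therefore measure the spread between these 12 embryos. In bulk tissue, fewer cells of a type and less RNA per cell cannot be told apart.

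Library totals ran from 16675204 to 21917571 counts, so that 3 counts in a library were worth 0.137 to 0.180 CPM (counts-per-million, the count scaled by library size). Traf7 averaged 17.2 ± 2.22 CPM over the KO embryos against 122 ± 11.4 CPM over the WT embryos (mean ± SD, n = 6 each), a log2 fold change of -2.83 (SE 0.0918, edgeR quasi-likelihood test, adjusted p = 2.4e-10). 2310061I04Rik measured 2.38 ± 1.99 and 12.1 ± 3.64 CPM, a log2 fold change of -2.35 with every KO embryo below every WT embryo. It did not pass in edgeR (adjusted p = 0.155) and passed in DESeq2 (adjusted p = 0.000142) and in limma-voom (adjusted p = 0.0279). The series text speaks of brain and the sample labels of embryos, and the transcripts followed the labels. Opalin, a protein of mature oligodendrocytes, had no count in any of the 12 libraries, while Hba-x, an embryonic globin, averaged 1337 CPM in KO and 1483 CPM in WT embryos. KO embryos 2, 3 and 6 lay below the WT range in transcripts of the posterior body. KO embryo 2 reached a sum of 0.409 CPM over 10 posterior Hox genes, KO embryo 3 reached 5.39 CPM and KO embryo 6 reached 105 CPM, where the WT sums ran from 134 to 249 CPM. The heart muscle markers summed to 30.7 CPM for KO embryo 3, where the WT sums ran from 839.6 to 1218 CPM.

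Most histone lysine demethylases belong to the Jumonji C (JmjC) family, enzymes that remove methyl groups by oxidation, with molecular oxygen and alpha-ketoglutarate as co-substrates and ferrous iron as cofactor. Because oxygen is a substrate, their activity can fall when oxygen is scarce, and some of their genes, Kdm3a and Kdm4b among them, are known targets of the hypoxia-inducible factors (HIF) in other cells. In the early embryo the family resets the methyl marks that hold developmental genes silent or active. Kdm3 enzymes act on mono- and dimethylated lysine 9 of histone H3, a repressive mark, and Kdm4 enzymes act on its trimethylated form and on lysine 36. Kdm2 enzymes bind unmethylated CpG islands and act on lysine 36, Kdm5b acts on lysine 4, a mark of active promoters, and Kdm6b acts on lysine 27, the mark laid down by Polycomb.

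The start regions of 4 members are shown because the HIF complex recognises a short core sequence, searched here as the letters ACGTG and GCGTG on both strands. RefSeq promoter windows (GRCm38.p6) matched 5 of the 9 members, Kdm2b, Kdm3a, Kdm4a, Kdm4c and Kdm5b, with 11 windows among them, each searched over the 250 bases before a transcript start. Either motif was present in 7 of these 11 windows, against 38.6% of 32851 RefSeq windows of the same length. Of the 7, 4 belonged to Kdm2b, and a pair of those overlapped almost fully and shared their matches. At least 1 window held a match for 4 of the 5 members, a count that can rise with the number of windows a member has. ACGTG alone was in 16.6% and GCGTG alone in 28.2% of those windows. Matches are in capitals, written on the strand of the gene, so that a match on the other strand reads CACGT or CACGC, and CACGTG counts once on each strand. The stretches lie at chr6:71632991-71633167 on the minus strand for Kdm3a, chr1:134559928-134560170 on the plus strand for Kdm5b, chr4:74251629-74251878 on the plus strand for a start within Kdm4c, and chr4:118180044-118180293 on the minus strand for Kdm4a, and bases that the GENCODE annotation covers as exon are left out except around the Kdm3a match, which lies inside an annotated exon of Kdm3a.
Kdm3a, before the exon: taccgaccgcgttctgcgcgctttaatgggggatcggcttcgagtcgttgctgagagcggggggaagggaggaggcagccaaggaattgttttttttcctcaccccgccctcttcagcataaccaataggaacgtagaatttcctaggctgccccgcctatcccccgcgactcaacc
Kdm3a, around the exonic match 27 to 23 bases before the RefSeq start: gggaggctgtGCGTGtcttgtgaga
Kdm5b: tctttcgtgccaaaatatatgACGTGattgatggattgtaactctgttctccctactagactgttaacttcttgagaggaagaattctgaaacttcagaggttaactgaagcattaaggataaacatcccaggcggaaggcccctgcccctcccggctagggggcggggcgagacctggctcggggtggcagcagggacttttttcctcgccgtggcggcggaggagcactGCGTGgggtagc
Kdm4c: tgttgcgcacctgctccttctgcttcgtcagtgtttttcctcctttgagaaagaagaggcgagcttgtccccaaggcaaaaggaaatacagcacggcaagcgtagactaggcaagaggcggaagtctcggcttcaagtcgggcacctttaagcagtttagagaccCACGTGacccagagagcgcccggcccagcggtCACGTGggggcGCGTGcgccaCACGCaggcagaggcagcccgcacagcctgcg
Kdm4a: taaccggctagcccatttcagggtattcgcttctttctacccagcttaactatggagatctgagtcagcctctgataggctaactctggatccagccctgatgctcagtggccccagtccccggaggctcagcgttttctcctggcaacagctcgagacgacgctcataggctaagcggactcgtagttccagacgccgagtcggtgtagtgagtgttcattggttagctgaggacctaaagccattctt
The Kdm3a window shown held 1 match, close to the start, and the other 2 Kdm3a windows held none. Kdm5b held 2 matches, of which the GCGTG lay 19 to 15 bases before the start. The Kdm4c window shown, at an internal start, held 6 matches, 4 of them from a pair of CACGTG palindromes, while the window at the first base of the gene held none. The Kdm4a window held none. All 4 windows of Kdm2b, which are not printed, held a match. A match is only a run of letters, and whether a factor binds there was not measured. A relation between matches and fold changes was not tested.

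All 9 members had a log2 fold change above 0 in KO against WT embryos, with a median of 0.26, where the median over all genes tested was 0.01 and 51.6% of genes were above 0. The median over the members was 0.094 without KO embryo 5, 0.080 in limma-voom with 7 members above 0, and 0.072 without KO embryos 3 and 5. The members were chosen with earlier results of these data known. They also correlated with each other over the 12 libraries, at 0.446 to 0.971, so the 9 are not separate observations. None of the 9 passed the edgeR test at an adjusted p of 0.05, and over all genes 0.0203% did. At an unadjusted p of 0.05 or less, 4 members were higher in KO embryos (Kdm3a, Kdm4b, Kdm4c and Kdm5b) against 10.1% of all genes, and 0 were lower against 7.72% of all genes. No member had every KO embryo above every WT embryo, which held for 1.09% of genes, or every KO embryo below, which held for 1.74%. DESeq2 called 1 member, Kdm3a, higher, against 1.45% of its genes called higher and 0.880% called lower, and limma-voom with quality weights called none of the 9, against 0.358% of genes called in either direction.

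**Figure D1:**
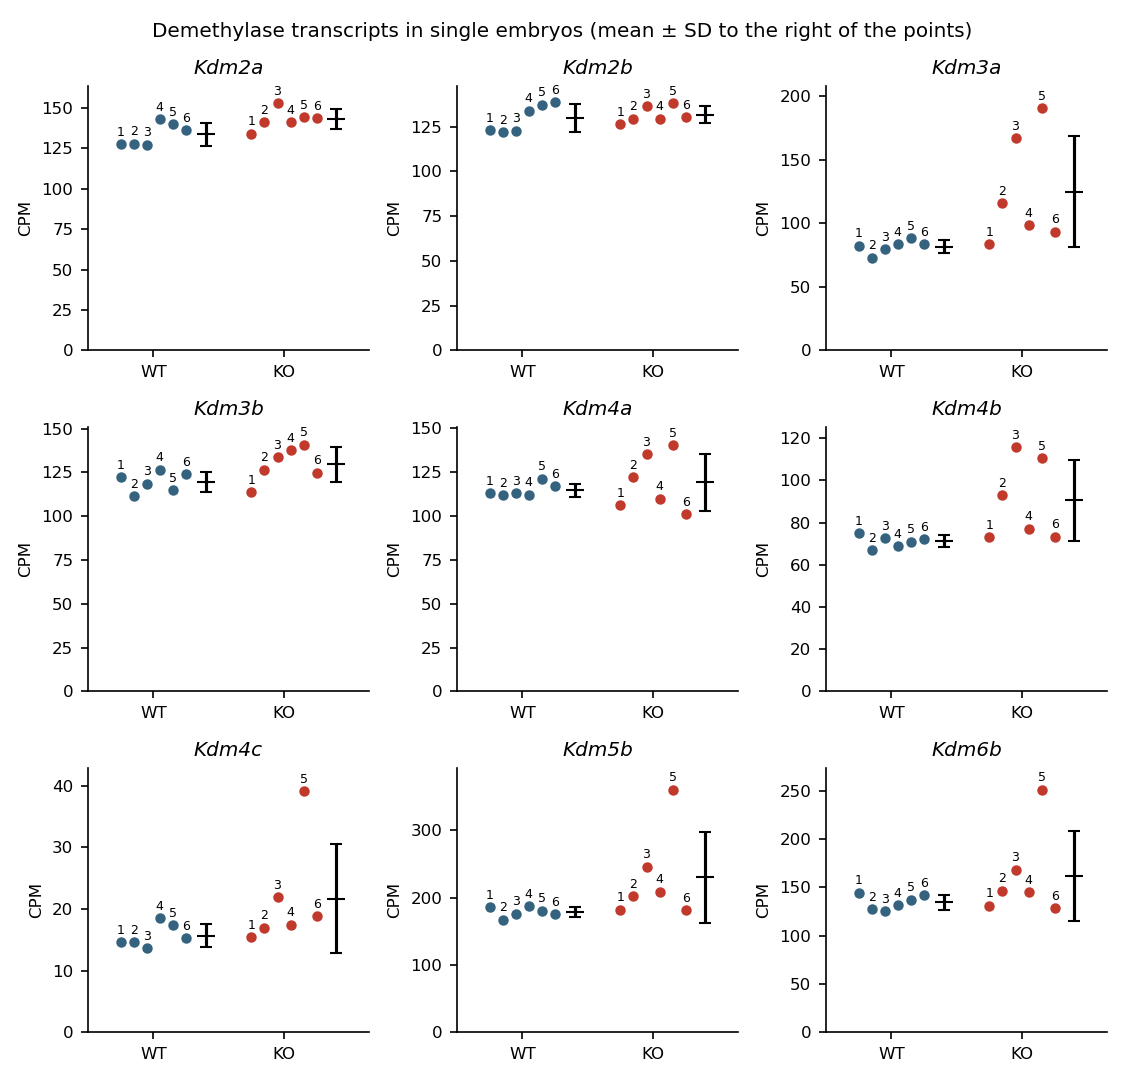
Level of each of the 9 demethylase genes in every embryo, in CPM scaled by TMM factors, with KO and WT embryos as points and the mean ± SD of each group (n = 6). KO embryos 3 and 5 lie above the WT range for every member except Kdm2b.

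Among the demethylases of repressive lysine 9, Kdm3a (chr6:71588972-71632990) was the member furthest from WT by p-value. Its level in KO embryos had a lowest value of 83.7, a median of 107 and a highest value of 190.3 CPM. In WT embryos the lowest value was 73.0, the median 82.9 and the highest 88.3 CPM. KO embryos 5 and 3 were the highest at 190.3 and 167 CPM, KO embryos 2, 4 and 6 also lay above every WT embryo, and KO embryo 1 lay within the WT range, so the groups overlapped by that embryo alone. The log2 fold change of 0.61 (SE 0.185) did not pass in edgeR (adjusted p = 0.173, unadjusted p = 0.00588), and it passed in DESeq2 (adjusted p = 0.0337). With KO embryos 3 and 5 set aside the log2 fold change was 0.26 (SE 0.0769, edgeR adjusted p = 0.172). Its paralog Kdm3b (chr18:34777047-34838660), which has the same substrate, ran from 114 to 141 CPM with a median of 130.2 in KO embryos and from 112 to 126 CPM with a median of 120.5 in WT embryos. KO embryos 3, 4 and 5 lay above the WT range, KO embryo 2 was level with its upper end and the other KO embryos lay among the WT embryos. For Kdm3b the log2 fold change was 0.12 (SE 0.0552, edgeR adjusted p = 0.287).

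Kdm4b (chr17:56326062-56402870), which acts on trimethylated lysine 9, lies on the chromosome of the targeted gene, 31.8 Mb from Traf7 and 20.4 Mb from 2310061I04Rik. In KO embryos it had a lowest value of 73.0, a median of 85.1 and a highest value of 116 CPM. In WT embryos the same 3 values were 67.0, 71.5 and 74.97 CPM. KO embryos 3, 5, 2 and 4 lay above every WT embryo, whereas KO embryos 1 and 6, at 73.0 and 73.3 CPM, fell inside the WT range. The log2 fold change was 0.35 (SE 0.111) and did not pass in edgeR (adjusted p = 0.180) or DESeq2 (adjusted p = 0.0805).

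Kdm4c (chr4:74242497-74405860) was the least abundant member. Its KO values had a lowest of 15.5, a median of 18.2 and a highest of 39.1 CPM, and its WT values 13.6, 14.98 and 18.5 CPM. KO embryo 5 stood at 39.1 CPM, far above the next, KO embryo 3 at 21.9 CPM, and the other KO embryos were in or just above the WT range. The log2 fold change was 0.47 (SE 0.20, edgeR adjusted p = 0.248), and it was 0.21 without KO embryo 5 (edgeR adjusted p = 0.315).

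Kdm4a (chr4:118136957-118180043), the third of these enzymes, had almost equal group means, 119 ± 16.1 CPM in KO and 115 ± 3.75 CPM in WT embryos (SD, n = 6). The KO values had a lowest of 101, a median of 116 and a highest of 140.2 CPM, and the WT values 112, 113 and 121 CPM. KO embryos 2, 3 and 5 lay above every WT embryo and KO embryos 1, 4 and 6 lay below every WT embryo, so the KO group enclosed the WT group on both sides. The log2 fold change was 0.06 (SE 0.0755, edgeR adjusted p = 0.725). Without KO embryos 2, 3 and 5 it was -0.12, a direction fixed by leaving out the embryos above every WT embryo.

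Kdm5b (chr1:134560171-134635285), the demethylase of lysine 4, was the member with the highest CPM. KO embryos had a lowest value of 181, a median of 205 and a highest value of 359.9 CPM. WT embryos had 167, 178 and 187 CPM. KO embryo 5 was highest, KO embryo 3 followed at 246 CPM, KO embryos 4 and 2 lay just above the WT range, and KO embryos 1 and 6 lay inside it. The log2 fold change was 0.36 (SE 0.145, edgeR adjusted p = 0.230), and 0.19 without KO embryo 5 (SE 0.0686, edgeR adjusted p = 0.191).

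Kdm6b (chr11:69398508-69413675), which removes the Polycomb mark on lysine 27, had a lowest value of 128, a median of 146 and a highest value of 251 CPM in KO embryos. In WT embryos these were 126, 134 and 145 CPM. KO embryo 5 was again far above the others, KO embryo 3 was next at 168 CPM, KO embryos 2 and 4 were just above the WT range, and KO embryos 1 and 6 lay among the WT embryos. The log2 fold change was 0.26 (SE 0.14, edgeR adjusted p = 0.336), and it was 0.094 without KO embryo 5 (edgeR adjusted p = 0.487).

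The CpG island-binding enzymes Kdm2a and Kdm2b were the members whose KO embryos spread less than their WT embryos. Kdm2a (chr19:4314419-4398285) ran from 134 to 153 CPM with a median of 142 in KO embryos and from 127 to 143 CPM with a median of 132 in WT embryos. KO embryo 3 was the highest, and the other KO embryos lay in or just above the WT range. This gave a log2 fold change of 0.10 (SE 0.0459, edgeR adjusted p = 0.290). Kdm2b (chr5:122870665-122989823), which also recruits a Polycomb complex to CpG islands, ran from 126 to 138 CPM in KO and from 122 to 138 CPM in WT embryos, with medians of 129.8 and 128 CPM. Its groups overlapped almost completely, and the log2 fold change was 0.02 (SE 0.0469, edgeR adjusted p = 0.820). Kdm2b overlaps Rnf34 on the opposite strand, whose counts were 41.4% of those of Kdm2b, and since the strand setting of the counting is not given in the sources used here, reads of the 2 genes may not be separated.

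The members differed from each other mostly in their levels in KO embryos 3 and 5. Relative to the WT mean, KO embryo 5 was higher by 1.32 on the log2 scale for Kdm4c, by 1.22 for Kdm3a, by 1.01 for Kdm5b, by 0.90 for Kdm6b and by 0.63 for Kdm4b. In the same embryo the differences were 0.29 for Kdm4a, 0.24 for Kdm3b, 0.11 for Kdm2a and 0.09 for Kdm2b. KO embryo 3 showed a different order, with Kdm3a at 1.03 and Kdm4b at 0.70 ahead of Kdm4c at 0.48, Kdm5b at 0.46 and Kdm6b at 0.32. Both embryos thus left Kdm2a, Kdm2b and Kdm3b within 0.24 of the WT mean.

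**Figure D2:**
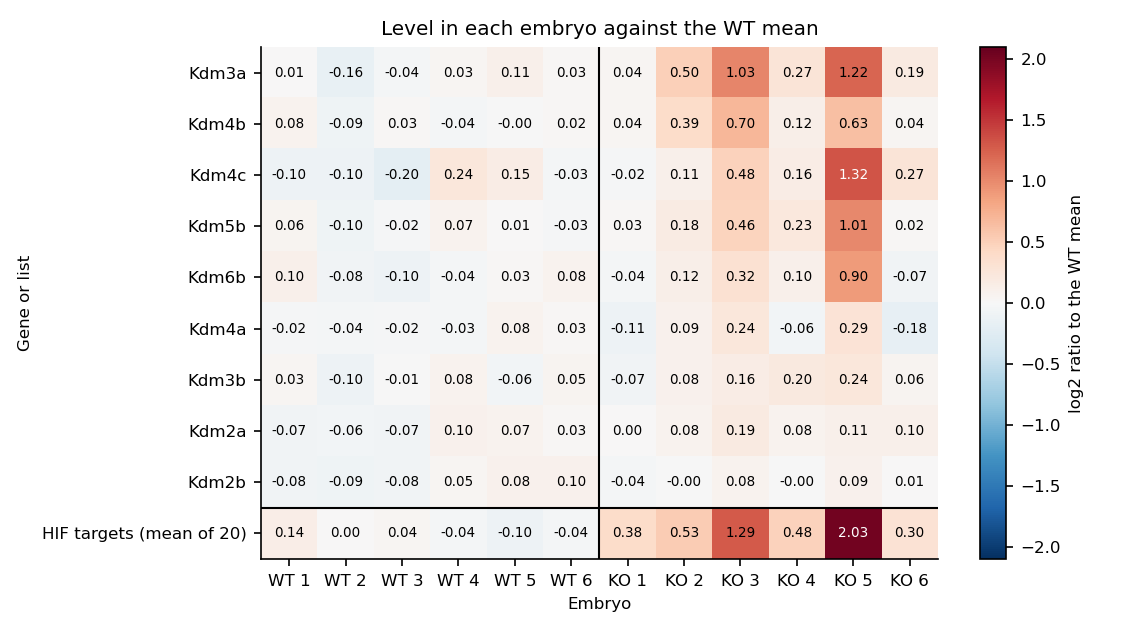
Log2 ratio of each member's CPM to the WT mean in each of the 12 embryos, with members down the side, embryos along the bottom and the mean of 20 HIF target genes under the members. Among the members, KO embryos 5 and 3 reach the largest values, 1.32 for Kdm4c and 1.03 for Kdm3a respectively, and the Kdm2 genes stay close to 0 in every embryo.

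The SD of log2 CPM was larger among KO than among WT embryos for 7 of the 9 members, against 76.5% of all genes. The KO to WT ratio of these SDs was 6.19 for Kdm5b, 5.20 for Kdm3a and Kdm4b, 4.31 for Kdm6b, 4.16 for Kdm4a and 2.89 for Kdm4c, where the median over 14728 genes was 1.53. Kdm3b was near that median at 1.62, and Kdm2a at 0.824 and Kdm2b at 0.586 were below 1.

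The order of the KO embryos was compared with that of 20 established HIF target genes, among them the glycolytic enzyme Ldha, the pyruvate dehydrogenase kinase Pdk1 and the mitophagy receptor Bnip3. Their mean log2 ratio to the WT mean, for KO embryos 1 to 6 by number, was 0.38, 0.53, 1.29, 0.48, 2.03 and 0.30, and WT embryos lay between -0.10 and 0.14. KO embryos 5 and 3 were thus the highest, as they were for every member except Kdm3b. Kdm4a and Kdm6b had the HIF targets' order of KO embryos. Kdm3a had that order except that embryos 1 and 6 changed places. All 20 HIF target genes had a log2 fold change above 0, with a median of 0.90. The edgeR test called 0 of them, with 19 higher at an unadjusted p of 0.05 or less, against 10.1% of all genes. DESeq2 called 13 higher, against 1.45% of its genes. Limma-voom called 4, against 0.358% of genes called in either direction. The smallest p-values were those of Pdk1 at 1.11 (SE 0.208), Bnip3 at 1.74 (SE 0.361) and Ldha at 0.42 (SE 0.0957). The HIF subunits themselves were mixed, with Hif3a at 0.68 (edgeR unadjusted p = 0.0382) and Hif1a at -0.16.

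The markers of body parts did not fall in this order. KO embryo 5, highest for Kdm4c, Kdm5b and Kdm6b, had 267 CPM of summed posterior Hox genes, above the WT range, whereas KO embryo 3 had 5.39 CPM. Summed yolk sac endoderm markers were highest for KO embryos 6 and 5, at 469 and 343 CPM, and lowest for KO embryo 3 at 2.95 CPM, with WT sums of 27.4 to 302 CPM. Of 9 proliferation genes, 3 were lower at an edgeR unadjusted p of 0.05 or less, against 7.72% of all genes. The list's median was -0.076 on the log2 scale. The edgeR test called 0, and DESeq2 called 1 lower, against 0.88% of its genes. That gene was the cyclin Ccna2, at -0.11 with every KO embryo below every WT embryo (DESeq2 adjusted p = 0.0416). The part of these differences in the levels of the demethylase genes was not tested.

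**Figure D3:**
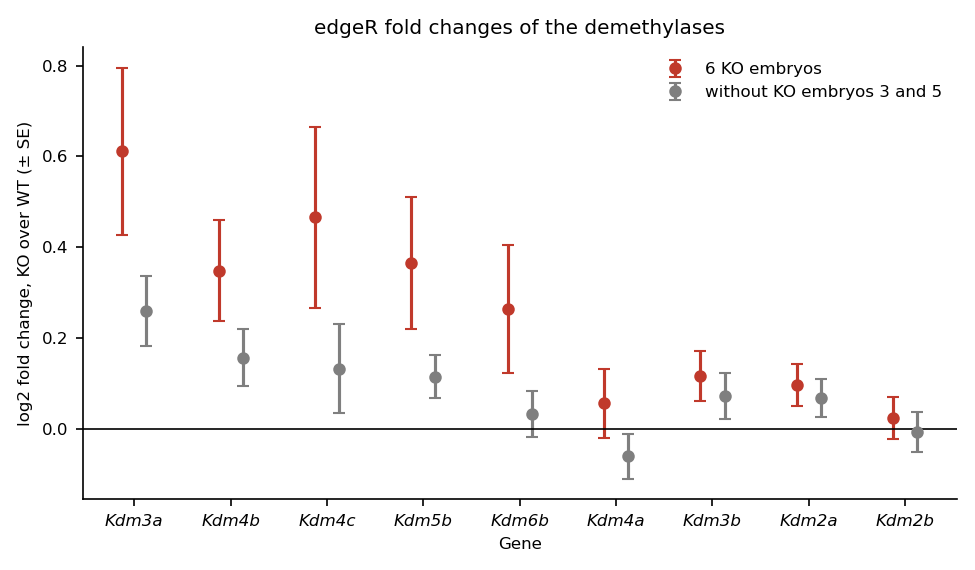
Log2 fold change of KO over WT for each member, with 1 SE on each side, from edgeR with all 12 embryos and with KO embryos 3 and 5 set aside. Kdm3a drops from 0.61 to 0.26 and Kdm4c from 0.47 to 0.13 when KO embryos 3 and 5 are set aside, and Kdm4a goes from 0.06 to -0.06.

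KO embryos 3 and 5 had the highest HIF target levels. They were also the highest KO embryos for every member except Kdm3b. A fall in those members' fold changes without them therefore follows from the choice of embryos. Setting KO embryos 3 and 5 aside left 7 of the 9 members with a log2 fold change above 0, with Kdm4a at -0.061 and Kdm2b at -0.0078. In the remaining 4 KO embryos, 3 members were at an unadjusted p of 0.05 or less in edgeR, Kdm3a at 0.26, Kdm4b at 0.16 and Kdm5b at 0.11, against 6.20% of genes higher at that p. With KO embryo 2, low in posterior Hox genes, also set aside, every remaining KO embryo was below every WT embryo for Kdm4a, as was the case for 3.47% of genes. The 3 embryos set aside were those in which Kdm4a had lain above every WT embryo. In this setting Kdm3a had a log2 fold change of 0.17 (edgeR unadjusted p = 0.0131).

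Levels per transcript length, in the deposited FPKM, gave another order than the counts. In WT embryos Kdm4a averaged 19.7 and Kdm6b 19.3 FPKM, and Kdm4a was above Kdm6b in 4 of 6 WT embryos, so those neighbours did not differ beyond their spread. Both were above Kdm4b in every WT embryo. Kdm4b at 14.4 and Kdm2b at 11.8 FPKM followed, then Kdm5b at 10.7, Kdm3a at 9.87, Kdm2a at 9.30 and Kdm3b at 8.43 FPKM. Each of these was above the next in all 6 WT embryos, except Kdm3a over Kdm2a, which held in 5. Kdm4c was lowest at 2.68 FPKM. In KO embryos Kdm6b had the highest mean at 23.0 FPKM, followed by Kdm4a at 20.4 FPKM, and Kdm3a at 14.99 FPKM had a higher mean than Kdm5b at 13.7 and Kdm2b at 11.99 FPKM. Kdm6b was above Kdm4a in 5 of 6 KO embryos, and Kdm3a was above Kdm5b in 4 and above Kdm2b in 4, so the order of these means did not hold in every KO embryo.

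The genes most like Kdm3a across the 12 libraries, by Pearson correlation of log2 CPM, were Tmem106c (0.986), Pfkfb3 (0.979), Kbtbd11 (0.977), Narf (0.976) and Psrc1 (0.976). Pfkfb3 makes the metabolite that activates glycolysis. For Kdm4b they were Kif1a (0.985), a neuronal kinesin, Kbtbd11 (0.975), Npepps (0.971), Pnrc1 (0.966) and Cblb (0.966). Among the members, Kdm5b and Kdm6b had a correlation of 0.971, Kdm3a and Kdm4b of 0.968 and Kdm4c and Kdm5b of 0.941, and the lowest was 0.446 between Kdm2b and Kdm4b. These values rest on the same 12 libraries, among which KO embryos 3 and 5 lie far out, and they are given as a description.

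Other JmjC genes lay on both sides of 0. Of 18 listed, 17 were tested, 9 with a log2 fold change above 0 and 8 below, with a median of 0.05. The edgeR test called 0 of them, with 3 higher and 1 lower at an unadjusted p of 0.05 or less, against 10.1% and 7.72% of all genes. DESeq2 and limma-voom each called 1, Kdm7a, against 1.45% of genes called higher in DESeq2 and 0.358% called in limma-voom. Kdm7a, a demethylase of lysine 9 and lysine 27 methylation, averaged 75.7 ± 39.5 CPM over KO and 40.4 ± 1.64 CPM over WT embryos (SD, n = 6), and every KO embryo was above every WT embryo. Its log2 fold change was 0.91 (SE 0.251) with an adjusted p of 0.169 in edgeR, 0.0388 in DESeq2 and 0.0463 in limma-voom. Kdm8, whose protein is described as a hydroxylase of proteins, measured 15.1 ± 2.49 CPM against 19.3 ± 1.53 CPM, with every KO embryo below every WT embryo and a log2 fold change of -0.36 (SE 0.112, edgeR adjusted p = 0.176). Jmjd1c, a relative of Kdm3a, was at 0.21 (SE 0.0664, edgeR adjusted p = 0.180). The other genes of this list with a Kdm symbol were above 0. Kdm5a, a paralog of Kdm5b, was at 0.28 (SE 0.0984, edgeR unadjusted p = 0.0122, adjusted p = 0.196), Kdm6a at 0.20 and Kdm5c at 0.10. A log2 fold change above 0 was thus not particular to the members. Among the Kdm symbols of this list only Kdm8 was below 0. Genes under other symbols lay on both sides, such as Phf2 at -0.18 and Phf8 at 0.09. The Kdm symbols therefore do not stand for the whole list, in which 8 of 17 genes were below 0.

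The flavin-dependent demethylases Kdm1a and Kdm1b, which use oxygen with a flavin instead of iron, had log2 fold changes of 0.05 and -0.09. The TET enzymes, iron and alpha-ketoglutarate oxygenases that act on methylated cytosine, had a median log2 fold change of 0.61, with Tet1 at 0.61 (SE 0.208, edgeR adjusted p = 0.196), Tet2 at 0.62 (SE 0.265, edgeR adjusted p = 0.247) and Tet3 at 0.11. For the writers opposite the demethylases the median was -0.02 over 6 lysine 9 methyltransferase genes, -0.03 over 6 Polycomb genes of lysine 27, 0.08 over 6 lysine 4 genes and 0.02 over 5 lysine 36 genes. The edgeR test called 0 genes of each of these lists. Neither DESeq2 nor limma-voom called any of them. Genes at an unadjusted p of 0.05 or less in these lists were Tet1, Tet2, Ezh1 at 0.43, Kmt2a at 0.29 and Setd1b at -0.25.

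**Figure D4:**
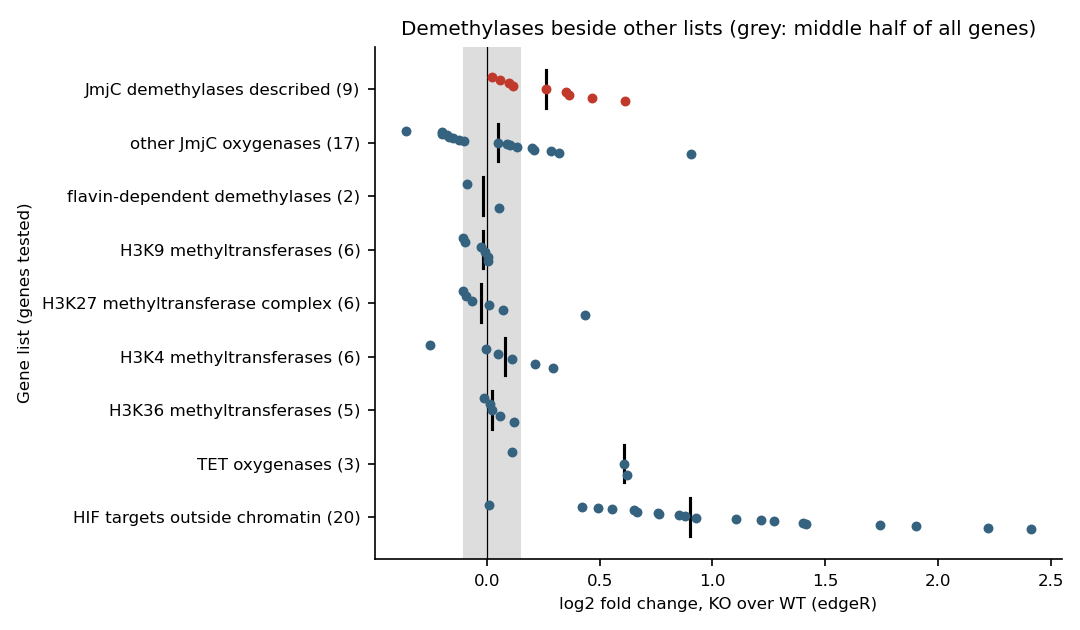
Log2 fold change of KO over WT for every tested gene of each list, with points for genes a line at the median of the list and a grey band over the middle 50% of all genes. The 20 HIF targets all lie above 0 with a median of 0.90, the 9 demethylases have a median of 0.26, and the methyltransferase lists lie around 0.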

How the data were processed

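Libraries were made from total RNA of single embryos and the table was produced by a sequencing provider. The authors deposited raw counts per gene and FPKM (fragments scaled by transcript length and library size) for each library, on mouse genome GRCm38 per the submitters' processing notes. The aligner, the counter and its strand setting were not given in the sources used here. The deposited table also holds the log2 fold changes, p-values and mean signal (normalized count) of the authors' own DESeq2 comparison, and none of these was used. All per-sample columns were mapped to embryos by label, 0 were left unused, and 26752 genes had no count.

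Counts were scaled by TMM factors, filtered with filterByExpr and tested with edgeR 4.0.16 (R 4.3.3; glmQLFit with robust estimation and glmQLFTest, two-sided, Benjamini-Hochberg over 14804 genes, threshold 0.05), with group as the only term. The SE of a log2 fold change was its size divided by the square root of F. Alternatives were DESeq2 1.42.0, limma-voom 3.58.1 with quality weights, other scaling, no filter, a replicate block, leaving out each embryo and setting aside KO embryos that stood apart. A value of 0.5 CPM was added before log2 for list means and correlations. The members, lists and embryos set aside were chosen with earlier results of these data known. Named genes were all members, the targeted genes, up to 3 genes of each other list with the smallest p, and the 5 protein-coding genes most correlated with Kdm3a and with Kdm4b. The genes with a Kdm symbol among the other JmjC genes were named as well, and so were Phf2 and Phf8. The code was tested on simulated data. Libraries in a group differed from each other by more than sampling noise.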

Additional observations from a re-analysis of the deposited data

Results flagged for a closer look

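Of 18 sets of 6 values examined, 1 for each member and group, 3 had a single embryo far from the rest, where chance marks about 1 in 20 independent sets. In each of them it was KO embryo 5, and Kdm4c, Kdm5b and Kdm6b correlated with each other at 0.912 to 0.971 over the 12 libraries, so the 3 are not separate events. Kdm4c stood at 39.1 CPM there, against 21.9 CPM in the next embryo, and this gap was 0.728 of the whole KO range. Kdm5b stood at 359.9 CPM against 246 CPM, a gap of 0.636 of the range. Kdm6b stood at 251 CPM against 168 CPM, a gap of 0.674 of the range. KO embryo 5 stood apart over all genes too, not only for these 3. Its counts differed from those of each other KO embryo by a chi-square per gene of 39.8 to 58.8. Pairs of the other KO embryos had 6.26 to 24.5. The share of all genes with such a gap was not computed. KO embryo 5 also had the highest mean level of the HIF target genes. The part of that difference in the levels of the 3 genes was not tested.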

How the results depend on the processing

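Over 20 alternatives, 173 of 180 member values kept their direction and their side of the threshold. Kdm3a passed in DESeq2, so that the count of members called went from 0 to 1. Kdm2b went to -0.013 in limma-voom, to -0.0094 without KO embryos 2, 3 and 5 and to -0.0078 without KO embryos 3 and 5, and Kdm4a to -0.051, -0.12 and -0.061 in the same settings; the cause was not tested. Members at an unadjusted p of 0.05 or less numbered 4 with all embryos and 2 without KO embryos 2, 3 and 5, Kdm3a higher and Kdm4a lower, where 5.53% of all genes were higher and 5.88% lower. There 1 member, Kdm4a, was lower without overlap, as were 3.47% of genes. For Kdm4a this follows from the choice of embryos, since those set aside were the KO embryos above every WT embryo. Leaving out 1 embryo at a time gave 3 to 7 such members (7 without KO embryo 1, where 11.9% of all genes were higher at that p), 0 called and 0 to 1 without overlap. The latter was Kdm3a without KO embryo 1 or WT embryo 5, where 1.97% and 1.51% of genes lay wholly higher, and Kdm4b without WT embryo 1, where 1.56% did. The replicate block left 0 members called and Kdm3a at 0.55. With that block 4 members were higher at an edgeR unadjusted p of 0.05 or less, where 8.38% of all genes were higher and 7.46% lower. Embryos with the same number correlated between -0.316 and 0.285, above 0.1 in 2 of 6 pairs, so the numbers were not taken as pairs. Genes called over the whole table were 3 with all embryos, 325 in DESeq2, 53 in limma-voom, 2 with the block, 5 without KO embryo 5, 41 without KO embryos 3 and 5 and 36 without KO embryos 2, 3 and 5. The smallest count of any member in a library was 245, for Kdm4c.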
